A study of Zea mays with 18 samples.

Results

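ZmPIN1a (Zm00001d044812.RefGen_V4) and ZmPIN1b (Zm00001d018024.RefGen_V4) are auxin efflux carriers of maize. They were taken as 2 named rows of a table of read counts for 28724 gene IDs, and both rows were present and passed the filter on low counts, which kept 20945 genes. The rule fixed the rows by ID and used no measured value. The names came with that rule and were not checked, since 0 of the 2 IDs matched the RefSeq table of gene names. The counts came from RNA sequencing of the quiescent centre, rarely dividing cells near the root tip around which the stem cells lie, isolated from seedlings 5 days of age. The lines were ZmPgb1.1(A), in which the phytoglobin gene ZmPgb1.1 is down-regulated (line A), ZmPgb1.1(S), which overexpresses it (line S), and wild type (WT). Roots stood in liquid medium and were taken after 12 h at 4% oxygen or at 0 h under normoxia, giving the groups A_12h, A_0h, S_12h, S_0h, WT_12h and WT_0h with 3 libraries each. There is no 12 h group in air here, so the effects of oxygen and of time cannot be told apart. No source used here gives the promoter of the transgenes or the number of transformants behind each line.

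PIN proteins sit in the plasma membrane and carry the hormone auxin out of the cell. Where they are placed on the cell sets the direction in which auxin flows through a tissue. In roots, auxin carried toward the tip builds a maximum there, which keeps the quiescent centre. Phytoglobins, hemoglobins of plants, scavenge nitric oxide, and their effect on auxin transport in maize roots is a published question that gives these carriers their interest here. Because RNA measures transcripts only, the placing of the carriers on the membrane was not measured.

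Total counts per library ran from 35441975 to 89759585, and scaling factors from 0.975 to 1.023. The other genes of auxin transport, synthesis and response, the markers of the quiescent centre and of other root cells, and ZmPgb1.1 itself are not analysed here, because 0 of the 28724 IDs matched the RefSeq table of maize gene names (assembly Zm-B73-REFERENCE-NAM-5.0). The tissue and the line labels were therefore not checked against their defining genes. Across all genes, the libraries resembled each other only in part by label. For 12 libraries 1 of the 2 nearest libraries (by Spearman correlation of log2 CPM) carried the same group label, and for 6 libraries none did. These 6 were replicate 3 of A_12h, A_0h, S_12h, S_0h and WT_12h and replicate 2 of WT_0h. A_12h replicate 3 lay nearest to S_12h replicates 1 and 2, and A_0h replicate 3 to A_12h replicates 1 and 2. For A_0h replicate 3, rho was 0.998 with both and 0.980 with the next nearest library. S_12h replicate 3 lay nearest to A_0h replicates 1 and 2, and S_0h replicate 3 to WT_0h replicates 1 and 3. WT_12h replicate 3 lay nearest to S_0h replicates 1 and 2, and WT_0h replicate 2 to WT_12h replicates 1 and 2. Each result below is given with all 18 libraries under their labels and, where a test was run, also without these 6, which leaves 2 libraries per group. Leaving out the libraries least like their group lowers the spread within groups by construction, and the shorter fit uses part of the same data, so it is no separate support.

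Both carriers were transcribed in every library. ZmPIN1a held 10500 to 27238 reads per library and ZmPIN1b 2089 to 5491. In counts per 1000000 counts of the scaled library (CPM), ZmPIN1a had its lowest library at 206.5, its median at 274 and its highest at 314 CPM, and only 2.87% of the genes tested had a higher mean. ZmPIN1b ran from 53.5 through a median of 58.0 to 64.4 CPM, and 19.2% of the genes tested had a higher mean. CPM is not corrected for transcript length, so the levels of the 2 genes are not compared with each other. In a bulk sample, fewer cells that use a gene and less RNA per cell cannot be told apart.

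ZmPIN1b varied little over the whole experiment. The SD of its log2 CPM over the 18 libraries was 0.0752, where the median of the 12145 genes averaging at least 10 CPM was 0.202, and 2.37% of those genes had a smaller SD. Its highest library was 1.20 times its lowest. ZmPIN1a had an SD of 0.186, with 43.6% of the same genes below it, and its highest library was 1.52 times its lowest. Counting error alone averaged 0.672 to 0.842% of the level per group for ZmPIN1a and 1.47 to 1.81% for ZmPIN1b. For ZmPIN1b the spread within a group was near that error in A_0h (coefficient of variation 1.77%, counting error 1.69%) and below it in WT_12h (1.28% and 1.47%). It was above that error in the other groups, most in WT_0h (7.44% and 1.56%) and A_12h (5.78% and 1.67%). The coefficient of variation within a labelled group was on average 14.4 times the counting error for ZmPIN1a and 2.31 times for ZmPIN1b. The share of the variance of log2 CPM that lay between the 6 labelled groups was 32.9% for ZmPIN1a and 51.7% for ZmPIN1b, beside a median of 44.9% over the genes tested. With so few libraries per group, part of such a share arises without any effect of the labels, and the shares were not tested.

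**Figure D1:**
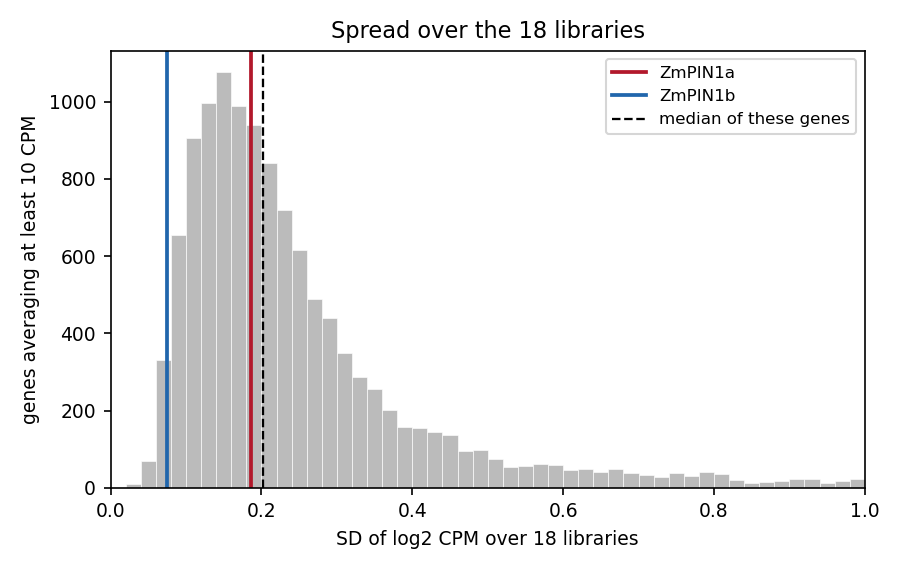
Spread of the carriers beside other genes. The x axis is the SD of log2 CPM over the 18 libraries and the y axis the number of genes per bin, for the 12145 genes averaging at least 10 CPM (289 genes with an SD of 1 or more lie beyond the axis). ZmPIN1b (blue line) stands at 0.0752 in the low tail, ZmPIN1a (red line) at 0.186 near the median of 0.202 (dashed).

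Under hypoxia in line A, ZmPIN1a measured 213, 212 and 289.6 CPM in A_12h replicates 1, 2 and 3, against 292, 280.5 and 206.5 CPM in A_0h replicates 1, 2 and 3. Replicate 3 of each group lay with the other 2 libraries of the opposite group, so the groups overlapped. The mean was 238 ± 44.5 CPM in A_12h and 259.8 ± 46.5 CPM in A_0h (SD, n = 3 each), and the log2 fold change was -0.13 (SE 0.14, 95% interval -0.43 to 0.18, edgeR adjusted p = 0.561). It was -0.29 without A_12h replicate 3, -0.27 without A_0h replicate 3, and -0.032 to -0.066 without any other 1 library of these groups. ZmPIN1a was not called in any of these fits, although the fit without A_0h replicate 3 called 5112 other genes. ZmPIN1b measured 62.9, 64.4 and 57.6 CPM in A_12h, against 56.3, 57.9 and 58.2 CPM in A_0h. The 2 highest libraries of ZmPIN1b in the whole series were A_12h replicates 1 and 2, while A_12h replicate 3 lay inside the range of A_0h. Its log2 fold change was 0.10 (SE 0.063, 95% interval -0.032 to 0.24, edgeR adjusted p = 0.308). In this comparison edgeR called 0% of the genes tested with all libraries, with 4021 genes at an unadjusted p under 0.05, while DESeq2 called 176 genes and limma-voom 0. Without the 6 libraries, ZmPIN1a was at 212.5 ± 1.06 CPM in A_12h and 286 ± 8.30 CPM in A_0h (SD, n = 2 each), a ratio of 0.742, and its log2 fold change was -0.43 (SE 0.039, edgeR adjusted p = 5.981e-09). ZmPIN1b was then at 63.7 ± 1.07 CPM in A_12h and 57.1 ± 1.14 CPM in A_0h, with a log2 fold change of 0.16 (SE 0.050, edgeR adjusted p = 0.00964). That fit called 59.5% of the genes it tested, so a call there sets neither carrier apart from other genes.

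Under hypoxia in line S, S_12h and S_0h were separate for both carriers. ZmPIN1a measured 279.9, 273.9 and 287.6 CPM in S_12h replicates 1, 2 and 3, against 248, 238 and 271 CPM in S_0h. Each S_12h library was above each S_0h library, with the mean at 280.4 ± 6.86 CPM in S_12h and 252 ± 17.1 CPM in S_0h (SD, n = 3 each). The log2 fold change of 0.15 did not pass the test (SE 0.14, 95% interval -0.15 to 0.45, edgeR adjusted p = 0.494). ZmPIN1b ran the other way, with 53.5, 54.2 and 56.2 CPM in S_12h, against 60.7, 58.5 and 56.7 CPM in S_0h. The S_12h libraries were all below the S_0h libraries, although S_12h replicate 3 and S_0h replicate 3 were almost level, and the log2 fold change of -0.10 did not pass the test (SE 0.063, 95% interval -0.23 to 0.033, edgeR adjusted p = 0.297). Such separate groups were seen in 28.7% of the genes tested here, with 13.6% higher and 15% lower in S_12h, and edgeR called 8.7%. In the fit of 12 libraries the log2 fold change was 0.19 for ZmPIN1a (SE 0.039, edgeR adjusted p = 0.000258) and -0.14 for ZmPIN1b (SE 0.050, edgeR adjusted p = 0.0195), in a fit that called 54.9% of genes.

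Under hypoxia in WT, ZmPIN1a averaged 286 ± 32.6 CPM in WT_12h and 285 ± 24.9 CPM in WT_0h (SD, n = 3 each). It measured 308, 302 and 248.8 CPM in WT_12h replicates 1, 2 and 3, against 274.6, 313.5 and 267 CPM in WT_0h. WT_0h replicate 2 was the highest library of the series and WT_12h replicate 3 the lowest of WT, and the groups overlapped. The log2 fold change was 0.0062 (SE 0.14, 95% interval -0.29 to 0.31, edgeR adjusted p = 1), an interval that spans 0.815 to 1.24 times the WT_0h level. ZmPIN1b was within a narrow band in WT_12h, at 60.3, 58.8 and 59.6 CPM, against 54.0, 62.5 and 57.1 CPM in WT_0h, whose libraries lay on both sides of that band. Its log2 fold change was 0.043 (SE 0.063, 95% interval -0.091 to 0.18, edgeR adjusted p = 1). edgeR called 0% of the genes tested in WT (379 at an unadjusted p under 0.05), DESeq2 called 9 genes and limma-voom 0. Without the 6 libraries, ZmPIN1a was at 305 ± 3.78 CPM in WT_12h and 270.9 ± 5.26 CPM in WT_0h (SD, n = 2 each; log2 fold change 0.17, SE 0.039, edgeR adjusted p = 0.00197), while ZmPIN1b had a log2 fold change of 0.10 (SE 0.049, edgeR adjusted p = 0.138). That fit called 29.2% of genes.

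**Figure D2:**
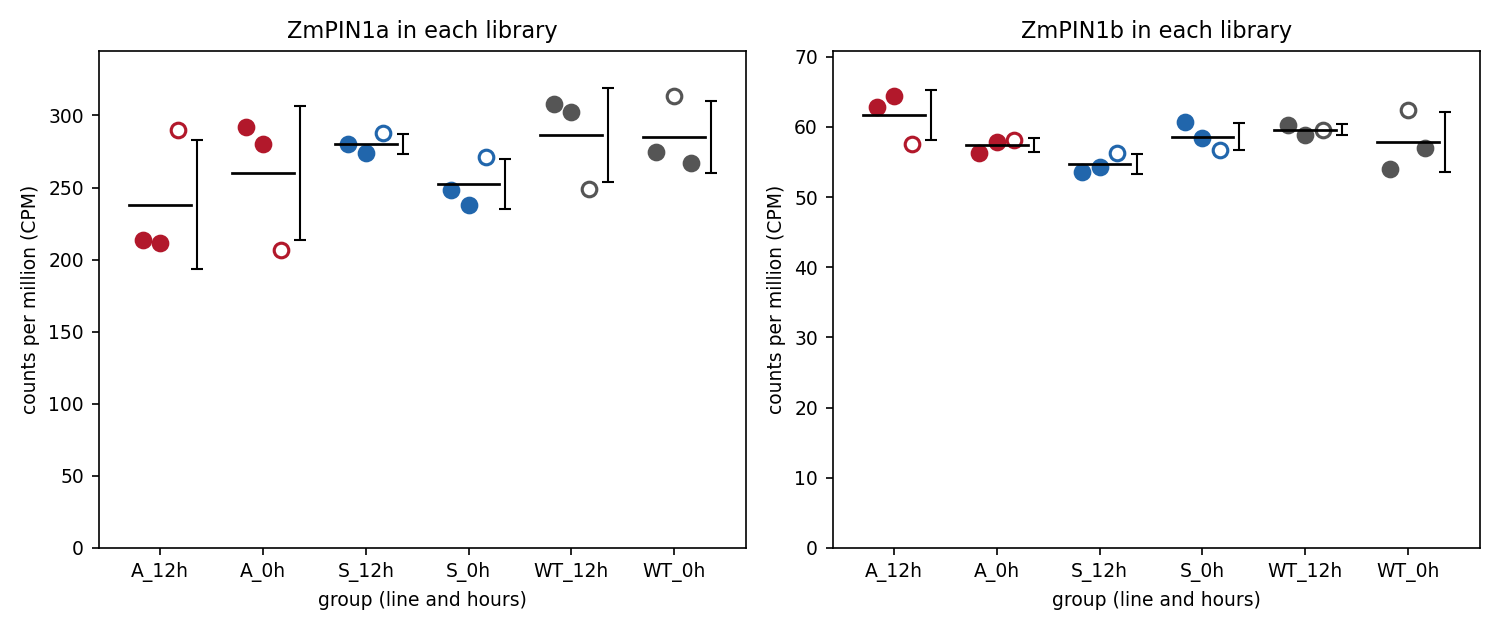
Levels of both carriers in each library. The y axes start at 0 and give CPM, each point is a library (replicates 1 to 3 from left to right within a group), the horizontal line is the group mean and the bar beside it the SD (n = 3). Open points are the 6 libraries nearest to another group, and the ZmPIN1a libraries at 206.5 to 213 CPM are A_12h replicates 1 and 2 and the open A_0h point.

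Set against WT, line A had the lower mean of ZmPIN1a at both times, and neither difference passed the test. At 12 h it was 238 ± 44.5 CPM in A_12h and 286 ± 32.6 CPM in WT_12h (SD, n = 3 each), a ratio of 0.832. The ranges overlapped because A_12h replicate 3, at 289.6 CPM, lay above WT_12h replicate 3, at 248.8 CPM. The log2 fold change was -0.27 (SE 0.14, 95% interval -0.57 to 0.036, edgeR adjusted p = 0.254), in a comparison where edgeR called 6.47% of genes. It was -0.43 without A_12h replicate 3 (edgeR adjusted p = 0.0908), -0.36 without WT_12h replicate 3 and -0.19 without A_12h replicate 2. The 12 libraries gave a ratio of 0.696, from 212.5 ± 1.06 CPM in A_12h and 305 ± 3.78 CPM in WT_12h (SD, n = 2 each), and the log2 fold change was -0.52 (SE 0.039, edgeR adjusted p = 5.64e-10), with 47% of genes called. At 0 h the log2 fold change of ZmPIN1a in line A was -0.13 with all libraries (SE 0.14, edgeR adjusted p = 0.616, 3.32% of genes called). Its sign turned without the 6 libraries, where it was 0.080 (SE 0.039, edgeR adjusted p = 0.0915, 49.2% of genes called). Leaving out A_0h replicate 3 alone, at 206.5 CPM, gave a log2 fold change near no change, at 0.0067 (edgeR adjusted p = 0.982). Leaving out WT_0h replicate 2 alone, at 313.5 CPM, gave -0.062.

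No difference in ZmPIN1b between line A and WT passed the test at either time. Its mean was 61.6 ± 3.56 CPM in A_12h and 59.6 ± 0.764 CPM in WT_12h (SD, n = 3 each), with a log2 fold change of 0.049 (SE 0.063, 95% interval -0.085 to 0.18, edgeR adjusted p = 0.675). At 0 h it was 57.4 ± 1.01 CPM in A_0h and 57.8 ± 4.31 CPM in WT_0h, and the log2 fold change was -0.0099 (SE 0.063, 95% interval -0.14 to 0.12, edgeR adjusted p = 0.947). Neither difference passed the test without the 6 libraries, with log2 fold changes of 0.098 at 12 h (edgeR adjusted p = 0.11) and 0.041 at 0 h (edgeR adjusted p = 0.525).

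Between line S and WT, groups were separate for ZmPIN1b at 12 h and overlapped for ZmPIN1a at both times and for ZmPIN1b at 0 h. At 12 h ZmPIN1b measured 54.7 ± 1.41 CPM in S_12h and 59.6 ± 0.764 CPM in WT_12h (SD, n = 3 each), and each S_12h library was below each WT_12h library. The log2 fold change was -0.12 (SE 0.063, 95% interval -0.26 to 0.0098, edgeR adjusted p = 0.199), so the difference did not pass the test over all genes, and groups were separate in 26.9% of genes, 13.3% of all being lower in S_12h, with 11.3% called. In the fit of 12 libraries it was -0.14 (SE 0.050, edgeR adjusted p = 0.0175), among 58.5% of genes called. ZmPIN1a at 12 h was at 280.4 ± 6.86 CPM in S_12h and 286 ± 32.6 CPM in WT_12h, with a log2 fold change of -0.030 (SE 0.14, edgeR adjusted p = 0.906), and of -0.14 without the 6 libraries (SE 0.039, edgeR adjusted p = 0.00422).

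At 0 h, ZmPIN1a was at 252 ± 17.1 CPM in S_0h and 285 ± 24.9 CPM in WT_0h (SD, n = 3 each). The groups overlapped, since S_0h replicate 3, at 271 CPM, lay above WT_0h replicate 3, at 267 CPM, and the log2 fold change was -0.18 (SE 0.14, 95% interval -0.48 to 0.13, edgeR adjusted p = 1). edgeR called 0% of genes there, with 355 at an unadjusted p under 0.05, DESeq2 called 15 genes and limma-voom 0. In the 12 libraries the log2 fold change was -0.16 (SE 0.039, edgeR adjusted p = 0.00529), with 20.1% of genes called. ZmPIN1b had a log2 fold change of 0.020 at 0 h (SE 0.063, 95% interval -0.11 to 0.15, edgeR adjusted p = 1) and of 0.10 without the 6 libraries (SE 0.049, edgeR adjusted p = 0.17).

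Lines A and S were then compared with each other. At 12 h, ZmPIN1b was higher in each A_12h library than in each S_12h library, with 61.6 ± 3.56 CPM in A_12h and 54.7 ± 1.41 CPM in S_12h (SD, n = 3 each), a ratio of 1.13. Its log2 fold change of 0.17 (SE 0.063, 95% interval 0.039 to 0.31) had an unadjusted p of 0.0148 and an edgeR adjusted p of 0.646. Groups were separate in 9.97% of the genes tested in this comparison, with 5.64% higher in A_12h, and edgeR called 0% (1581 genes had an unadjusted p under 0.05, DESeq2 called 93 and limma-voom 0). ZmPIN1a was at 238 ± 44.5 CPM in A_12h and 280.4 ± 6.86 CPM in S_12h, with a log2 fold change of -0.24 (SE 0.14, edgeR adjusted p = 0.666), and overlapped through A_12h replicate 3, without which it was -0.40 (edgeR adjusted p = 0.151), while it was -0.16 without A_12h replicate 2. Without the 6 libraries the log2 fold change at 12 h was 0.24 for ZmPIN1b (SE 0.050, edgeR adjusted p = 0.000403) and -0.38 for ZmPIN1a (SE 0.039, edgeR adjusted p = 6.652e-08), with 47.6% of genes called. At 0 h the log2 fold change of A_0h over S_0h was 0.041 for ZmPIN1a (SE 0.14, edgeR adjusted p = 0.905) and -0.029 for ZmPIN1b (SE 0.063, edgeR adjusted p = 0.839), with 1.82% of genes called. In the 12 libraries these were 0.24 (SE 0.039, edgeR adjusted p = 2.412e-05) and -0.059 (SE 0.050, edgeR adjusted p = 0.331), with 54.3% of genes called.

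With all 18 libraries, no difference between lines in the response to hypoxia passed the test for either carrier. For ZmPIN1a the difference in log2 fold change was -0.13 for line A against WT (SE 0.20, edgeR adjusted p = 0.809), 0.15 for line S against WT (SE 0.20, edgeR adjusted p = 0.783) and -0.28 for line A against line S (SE 0.20, 95% interval -0.70 to 0.15, edgeR adjusted p = 0.459). For ZmPIN1b it was 0.059 for line A against WT (SE 0.089, edgeR adjusted p = 0.807), -0.14 for line S against WT (SE 0.089, edgeR adjusted p = 0.473) and 0.20 for line A against line S (SE 0.089, 95% interval 0.013 to 0.39, unadjusted p = 0.0376, edgeR adjusted p = 0.205). The share of genes called was 0% for line A against WT by edgeR (1089 genes at an unadjusted p under 0.05, 16 called by DESeq2 and 0 by limma-voom), 0.105% for line S against WT and 1.23% for line A against line S.

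In the 12 other libraries, the response of ZmPIN1a in line A differed from that in WT by -0.60 (SE 0.055, edgeR adjusted p = 1.254e-08) and from that in line S by -0.62 (SE 0.055, edgeR adjusted p = 6.766e-09), whereas line S and WT differed by 0.021 (SE 0.055, 95% interval -0.092 to 0.14, edgeR adjusted p = 0.8). In those 12 libraries the ratio of hypoxia to normoxia for ZmPIN1a was 0.742 in line A, 1.14 in line S and 1.13 in WT. The response of ZmPIN1b in line S differed from that in WT by -0.24 (SE 0.070, edgeR adjusted p = 0.00751), and that in line A differed from that in line S by 0.30 (SE 0.070, edgeR adjusted p = 0.00127), while line A and WT differed by 0.057 (SE 0.070, edgeR adjusted p = 0.538). Here 47.8% of genes were called for line A against WT, 43.7% for line S against WT and 50% for line A against line S. Over the 12 comparisons with all libraries, edgeR, DESeq2 and limma-voom each called ZmPIN1a in 0 and ZmPIN1b in 0, with an unadjusted p under 0.05 in 0 for ZmPIN1a and 2 for ZmPIN1b by each tool. The fit without the 6 libraries called ZmPIN1a in 10 and ZmPIN1b in 6, and called 20.1 to 59.5% of all genes it tested by comparison. Several of these comparisons share groups.

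**Figure D3:**
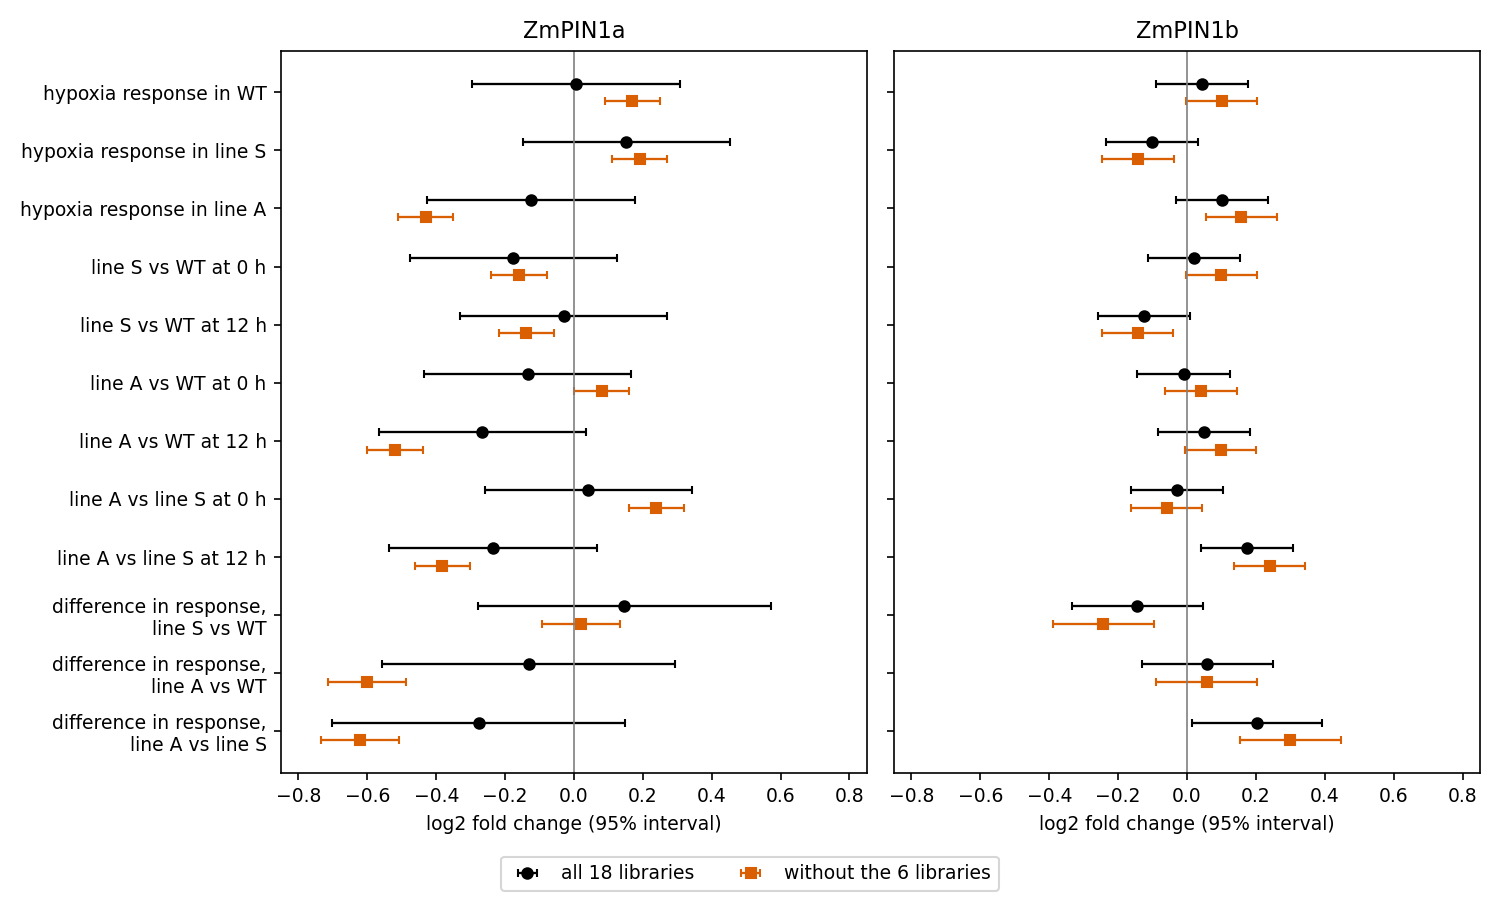
Log2 fold changes of both carriers in the 12 comparisons. Points are edgeR estimates and bars 95% intervals, in black with all 18 libraries and in orange without the 6 libraries nearest to another group, with positive values meaning higher in the group or response named first (12 h over 0 h for hypoxia). Orange intervals of ZmPIN1a are narrower, around estimates of -0.60 and -0.62 in the differences that involve line A, where the black intervals include 0.

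The 6 libraries were placed by all genes, the carriers included. ZmPIN1a was closer to the mean of its 2 nearest libraries than to the mean of the other 2 libraries of its label in 6 of the 6, as were 27.2% of the genes tested, whose median was 5 of the 6. By the same count ZmPIN1b was closer to its nearest libraries in 5 of the 6, and in 4 with a near tie set aside. Of the genes tested, 84% were closer to the nearest libraries in at least 4 of the 6. The near tie was WT_12h replicate 3, where ZmPIN1b lay 0.0264 CPM from the nearest libraries and 0.027 CPM from its own label. A_0h replicate 3 was closer to its own label, and held 58.2 CPM of ZmPIN1b, against 56.3 and 57.9 CPM in the other A_0h libraries and 62.9 and 64.4 CPM in its nearest libraries, A_12h replicates 1 and 2. For ZmPIN1a the 3 lowest libraries of the series were A_0h replicate 3 and A_12h replicates 2 and 1, at 206.5, 212 and 213 CPM, and the next library, S_0h replicate 2, was at 238 CPM. The 3 highest were WT_0h replicate 2 and WT_12h replicates 1 and 2, at 313.5, 308 and 302 CPM. Where fits leaving out 1 library called any genes, the most were called without 1 of the 6 libraries. Without A_0h replicate 3, 5112 genes were called for hypoxia in line A and 3837 for the response of line A against line S. Without S_12h replicate 3, 6074 were called for hypoxia in line S, against 1822 with all libraries. Not each of the 6 raised the number, since leaving out S_0h replicate 3 lowered it to 422 for hypoxia in line S. Whether the labels or the material of the 6 libraries differ from what is recorded was not tested.

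Ordered by labelled group, the mean of ZmPIN1a ran from A_12h at 238, through S_0h at 252, A_0h at 259.8, S_12h at 280.4 and WT_0h at 285, to WT_12h at 286 CPM. Every neighbouring pair in that order overlapped. ZmPIN1b ran from S_12h at 54.7, through A_0h at 57.4, WT_0h at 57.8, S_0h at 58.6 and WT_12h at 59.6, to A_12h at 61.6 CPM. The lowest pair did not overlap but nearly touched, with 56.3 CPM in the lowest A_0h library and 56.2 CPM in the highest S_12h library, and the other neighbouring pairs overlapped. These 2 groups were separate in 8.47% of the genes tested, with 4.24% higher in A_0h.

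The balance of the carriers was read within each library, as reads of ZmPIN1a per read of ZmPIN1b, which needs no scaling between libraries. It ran from 3.29 to 5.23 with a median of 4.93. In line A it was 3.39, 3.29 and 5.03 in A_12h replicates 1, 2 and 3, against 5.19, 4.85 and 3.55 in A_0h. In line S it was 5.23, 5.05 and 5.11 in S_12h, against 4.09, 4.07 and 4.78 in S_0h, with no overlap between the groups. That follows from the levels, as ZmPIN1a was higher and ZmPIN1b lower in each S_12h library than in each S_0h library. Of the genes tested, 13.6% were separate and higher in S_12h and 15% separate and lower. In WT it was 5.10, 5.14 and 4.17 in WT_12h, against 5.09, 5.02 and 4.68 in WT_0h. The ratio was thus below 4 in the same 3 libraries in which ZmPIN1a was lowest. Because transcript lengths enter this ratio, its size does not give the relative number of molecules, and its changes were not tested.

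**Figure D4:**
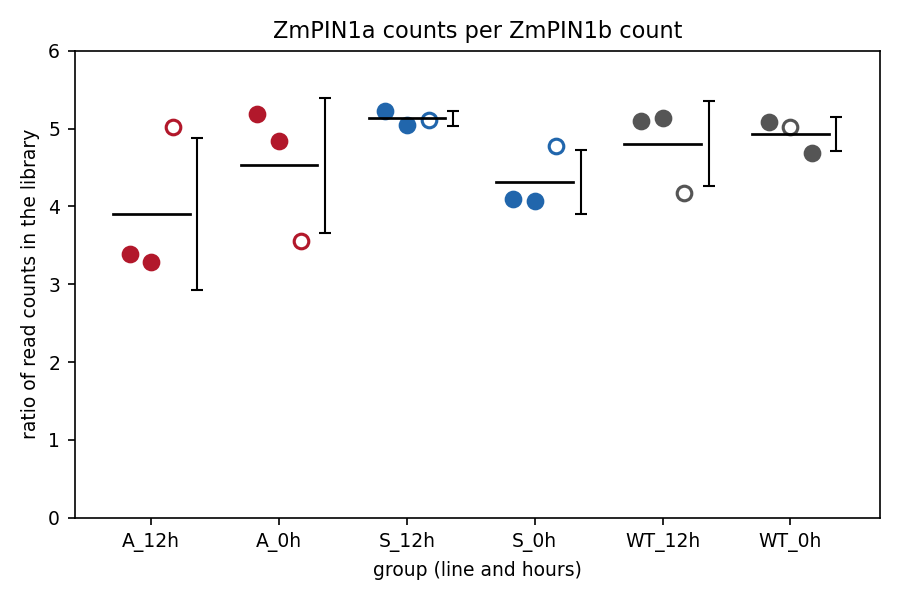
Reads of ZmPIN1a per read of ZmPIN1b in each library. The y axis starts at 0, points are libraries (replicates 1 to 3 from left to right), lines are group means, bars are the SD (n = 3), and open points are the 6 libraries nearest to another group. The S_12h libraries sit together at 5.05 to 5.23, and the libraries at 3.29, 3.39 and 3.55 are A_12h replicates 2 and 1 and A_0h replicate 3.

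The carriers were not alike in pattern. Over the 18 libraries, Pearson's r of their log2 CPM was -0.38 (Spearman's rho -0.23), and -0.24 without the 2 libraries farthest from the median of ZmPIN1a, as a description of libraries that differ in depth and fall into sets. Those 2 were A_0h replicate 3 and A_12h replicate 2. A_12h replicate 1, with 213 CPM of ZmPIN1a and 62.9 CPM of ZmPIN1b, stayed in, so the lower r still holds a library of that set. Among the 12144 other genes averaging at least 10 CPM, ZmPIN1b ranked 10051 by likeness to ZmPIN1a. The genes most like ZmPIN1a were Zm00001d029144.RefGen_V4 (r = 0.952, 542.5 to 721 CPM) and Zm00001d025031.RefGen_V4 (r = 0.949, 35.0 to 56.1 CPM), and 23 genes had an r over 0.9. Both were low in A_12h replicates 1 and 2 and A_0h replicate 3, as ZmPIN1a was. The most opposite were Zm00001d031635.RefGen_V4 (r = -0.96, 18.6 to 41.6 CPM) and Zm00001d010066.RefGen_V4 (r = -0.96, 14.5 to 39.1 CPM), each highest in those 3 libraries. For ZmPIN1b the most alike were Zm00001d026580.RefGen_V4 (r = 0.864, 11.8 to 16.1 CPM) and Zm00001d039141.RefGen_V4 (r = 0.831, 40.9 to 54.5 CPM), and no gene reached an r of 0.9. Its most opposite genes were Zm00001d024821.RefGen_V4 (r = -0.82, 24.2 to 47.2 CPM) and Zm00001d033650.RefGen_V4 (r = -0.81, 12.0 to 15.6 CPM). These IDs carry no name in the sources used here.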

How the data were processed

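The values are whole-number read counts per gene, not normalised, in 1 table the authors deposited, with a column for each of the 18 libraries whose name matched the library's title. Per the submitters' processing notes, the counts were made with HISAT2 and featureCounts on build B73 RefGen_v4. No source used here gives versions, strand setting or how multi-mapped reads were handled, so reads shared with near-identical gene copies or with overlapping or antisense genes could have been split or dropped. Whether a group's 3 libraries are separate pools of plants is not stated in the labels, so the p-values cover the spread among these libraries alone, which may be technical. No 2 libraries agreed within sampling noise (lowest chi-square per gene 3.89 over 153 pairs).

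Genes were filtered with filterByExpr by group (20945 kept, 7779 removed), scaled by TMM and fitted in edgeR 4.0.16 (R 4.3.3) with 1 mean per group over all 18 libraries (12 residual degrees of freedom) and robust quasi-likelihood dispersion. Each of 12 contrasts was tested over all genes with Benjamini-Hochberg adjustment, and calls have an adjusted p under 0.05. Only the carriers' rows are printed. Standard errors are the fold change over the square root of F, and 95% intervals from the t distribution of that fit. CPM uses the TMM-scaled library size. Log2 CPM used a prior count of 2. The fit was tested on simulated counts. Alternatives were DESeq2 1.42.0, limma-voom (limma 3.58.1), RLE scaling, no filter, a stricter filter (some group with every library at 1 CPM or more and a mean of at least 10 CPM), the replicate number as a block, only the groups compared in the fit, each library left out in turn, and a fit of 12 libraries that drops the 6 whose nearest libraries carry another label.

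The members, lists, contrasts and alternatives were chosen with earlier results of these data known. Named beside the carriers are, for each, the 2 most alike and the 2 most opposite genes by Pearson's r among genes averaging at least 10 CPM. A list of auxin pathway genes and 1 of root cell markers could not be matched to IDs and were left out. No sequence is shown, since the sources used here held none.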

Additional observations from a re-analysis of the deposited data

How the results depend on the processing

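With all 18 libraries, with single libraries left out in the comparisons that use their group, and under DESeq2, limma-voom, RLE scaling, both other filters, the replicate block and the fit of only the groups compared, neither carrier passed the threshold in any of the 12 comparisons: 0 of 372 values, lowest adjusted p = 0.0908, which was ZmPIN1a in line A against WT at 12 h without A_12h replicate 3. The lowest adjusted p was 0.153 by DESeq2, 0.209 by limma-voom and 0.258 with the replicate block, and the block changed no call of the carriers. Same-numbered libraries of different groups had an r over 0.1 between their deviations from the labelled group means in 4 of 45 pairs. Those deviations also carry the libraries nearest to another group, so this check cannot decide whether the numbers pair the libraries. The labels do not say that they do, and the main fit used no pairing.

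The stricter filter turned the sign of ZmPIN1a under hypoxia in WT (-0.0016) and of ZmPIN1b in line A against WT at 0 h (0.0063). Leaving out single libraries also turned signs, with log2 fold changes of -0.049 to 0.097 for ZmPIN1a and -0.0043 to 0.10 for ZmPIN1b under hypoxia in WT, -0.12 to 0.024 for ZmPIN1a in line S against WT at 12 h, -0.027 to 0.079 for ZmPIN1b in line S against WT at 0 h, -0.23 to 0.0067 for ZmPIN1a and -0.058 to 0.048 for ZmPIN1b in line A against WT at 0 h, and -0.053 to 0.18 for ZmPIN1a in line A against line S at 0 h. The difference in response of ZmPIN1a kept its sign and ran from -0.30 to -0.038 for line A against WT and from -0.45 to -0.18 for line A against line S.

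Without the 6 libraries nearest to another group, 16 values passed the threshold with their sign kept, in a fit that called 20.1 to 59.5% of all genes by comparison. For ZmPIN1a these were 0.17, 0.19 and -0.43 under hypoxia in WT, line S and line A, -0.16 and -0.14 in line S against WT at 0 and 12 h, -0.52 in line A against WT at 12 h, 0.24 and -0.38 in line A against line S at 0 and 12 h, and -0.60 and -0.62 for the response of line A against WT and line S. For ZmPIN1b they were -0.14 and 0.16 under hypoxia in lines S and A, -0.14 in line S against WT at 12 h, 0.24 in line A against line S at 12 h, and -0.24 and 0.30 for the response of line S against WT and of line A against line S. In line A against WT at 0 h the signs turned (0.080 for ZmPIN1a, 0.041 for ZmPIN1b). This choice lowers the spread by construction.

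Over all genes, the number called moved by more than 1.5 times with these choices. For hypoxia in line S it was 1822 with all libraries, 228 to 6074 with 1 library left out, 3808 by DESeq2, 790 with the replicate block and 166 with only the groups compared. In the same order it was 2370, 353 to 5990, 4121, 1284 and 85 for line S against WT at 12 h, 696, 159 to 3083, 2328, 285 and 33 for line A against WT at 0 h, and 382, 47 to 3138, 2062, 135 and 50 for line A against line S at 0 h. For line A against WT at 12 h it was 1356, 86 to 1706, 3147 by DESeq2 and 577 with the block. For the difference in response it was 22, 2 to 1211, 824, 2 and 149 in line S against WT and 257, 1 to 3837, 1852, 1 and 13 in line A against line S. For hypoxia in line A it was 0, and 5112 without A_0h replicate 3. Each upper end came without 1 of the 6 libraries. The cause was not tested.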
